A study of Mus musculus with 12 samples.

Results

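The genes described here are 9 regulators of the passage from G1 to S phase, namely the kinases Cdk4, Cdk6 and Cdk2, the D cyclins Ccnd1, Ccnd2 and Ccnd3, the retinoblastoma gene Rb1 and the inhibitors Cdkn2c and Cdkn1b. They were taken from a written list and matched by symbol to Ensembl mouse identifiers, and all 9 of 9 were found among the 27866 gene identifiers of the astrocyte table and the 30359 of the microglia table (32783 in either). Male C57Bl6/J mice received bilateral injections into hippocampal CA1 at 2 months of age and were studied at 4 months, 2 months post-injection. The AAV2/9 vectors carried the GfaABC1D promoter, a short form of the human GFAP promoter used to restrict expression to astrocytes, followed by the murine adenosine A2A receptor (AAV-A2A) or by GFP (AAV-GFP, the control). No group was left without a vector, so that injection, virus and a transcript made from a vector were common to all animals. Hippocampal cells were bound to magnetic beads against ACSA-2, an astrocyte surface antigen, and the cells that did not bind were then passed over beads against CD11b, an integrin of microglia and other myeloid cells. Each fraction and vector had 3 RNA sequencing libraries, 12 in all, named here by vector and number (GFP-303, GFP-306, GFP-307, A2A-309, A2A-310 and A2A-313 for ACSA-2, and GFP-2328, GFP-2329, GFP-2331, A2A-2343, A2A-2344 and A2A-2347 for CD11b).

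D cyclins bind CDK4 and CDK6, and the complexes phosphorylate the retinoblastoma protein, which otherwise holds E2F transcription factors and the genes of DNA synthesis in check. CDK2, bound to cyclin E and then cyclin A, takes over later in G1 and in S phase. The INK4 protein encoded by Cdkn2c (p18) binds CDK4 and CDK6 and keeps cyclins away, and the CIP/KIP protein encoded by Cdkn1b (p27) inhibits CDK2 complexes. Astrocytes and microglia of the adult hippocampus divide rarely, and most of their cells rest outside the cycle.

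The deposited libraries held 33937067 to 49217553 counts on genes in the ACSA-2 fraction and 36098295 to 53206974 in the CD11b fraction. Adora2a, which encodes the A2A receptor, had 23.0 to 25.1 CPM (normalised read counts, each library scaled by its total and its TMM factor) in the ACSA-2 AAV-GFP libraries and 656 to 945 CPM in the AAV-A2A libraries, so that no label was contradicted. In the CD11b fraction Adora2a had 3.96 to 8.07 CPM with AAV-GFP and 16.3 to 43.3 CPM with AAV-A2A. Vector and endogenous transcripts were not separated in these counts. Against CD11b, all 8 astrocyte markers were higher and all 8 microglia markers were lower in the ACSA-2 AAV-GFP libraries. The CD11b libraries were uneven, however. The 6 choroid plexus markers, Ttr among them, summed to 109510 CPM in GFP-2328, 86638 in GFP-2329 and 61490 in A2A-2347, but to 137 in GFP-2331, 110 in A2A-2343 and 24.6 in A2A-2344. In the same 3 choroid-rich libraries the 8 microglia markers summed to 7470, 14867 and 21947 CPM, against 51466, 56104 and 46277 CPM in the others. CD11b results are therefore given with and without these libraries.

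The kinases and the cyclins are sister genes, and the letters below show how far their messages could be told apart by short reads. Coding sequences were read from the GENCODE annotation of GRCm38, and each pair was aligned. The longest run shared without a mismatch is printed for the kinase pair and for the cyclin pair with the highest identity, in capitals, 5′ to 3′.
Cdk4 and Cdk6: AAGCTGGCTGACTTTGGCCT
Ccnd1 and Ccnd2: TTCAAGTGCGTGCAGAAGGA
The first run covers bases 463 to 482 of the Cdk4 coding sequence and 478 to 497 of that of Cdk6, and the pair was identical at 70.9% of its aligned bases. The second covers bases 133 to 152 of Ccnd1 and 127 to 146 of Ccnd2, with 72.5% identity. Both runs are 20 bases long, and no word of 40 bases, the shortest read length the authors kept, occurred in the transcripts of more than 1 of the 9 genes. Opposite-strand neighbours were the larger limit. Tspan31 shares 19.7% of the exon bases of Cdk4, LTO1 shares 23.4% of those of Ccnd1, and Rcbtb2 and Lpar6 share 8.11% and 6.78% of those of Rb1. The library kit does not mark strand, so reads in these stretches could not be assigned, and the counts of these genes are uncertain to that extent.

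In the ACSA-2 fraction, Cdk6 fell steeply with AAV-A2A while no other gene of the set passed the test. Cdk6 (ENSMUSG00000040274, chr5:3341485-3531008, plus strand, GRCm38) had 41.3, 43.9 and 52.8 CPM in GFP-303, GFP-306 and GFP-307, from 1649, 1481 and 2013 reads. It had 5.21, 5.91 and 3.92 CPM in A2A-309, A2A-310 and A2A-313, from 188, 250 and 177 reads. Every AAV-A2A library lay far below every AAV-GFP library, and the spread within either group was small beside the distance between them. The means were 46.0 ± 6.0 and 5.02 ± 1.0 CPM (SD, 3 libraries each). The log2 fold change (FC) was -3.20 ± 0.27 (SE; 95% interval -3.81 to -2.59), or 9.17-fold less, with an adjusted p = 0.00106 by edgeR's quasi-likelihood test with Benjamini-Hochberg adjustment over 16451 genes. By p-value Cdk6 ranked 8 among all genes tested. Genes were called where the adjusted p was under 0.05 and the log2 FC above 0.32 in size. In this comparison 3.36% of all genes tested were called (0.176% higher and 3.19% lower), and 1 of the 9. Cdk6 was called under all 12 alternatives run, including DESeq2, limma-voom and each library left out in turn, with a log2 FC between -3.33 and -3.05 and an adjusted p of at most 0.0244. In bulk libraries such as these, fewer cells of a type and less RNA per cell cannot be told apart.

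**Figure D1:**
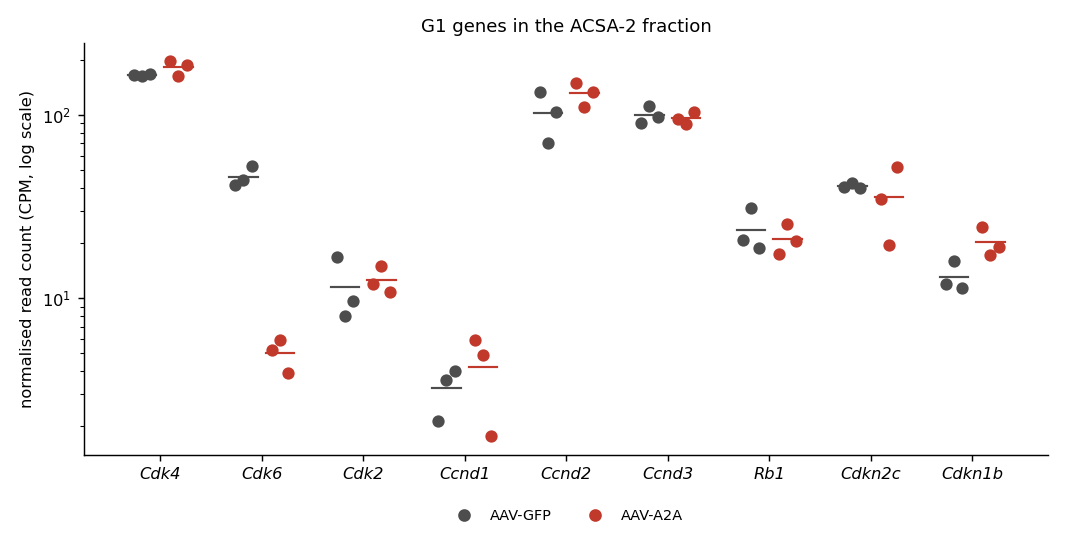
Normalised read counts (CPM, log scale) of the 9 genes in the 6 ACSA-2 libraries, AAV-GFP in grey and AAV-A2A in red, where each point is a library and each line a group mean (n = 3). Cdk6 is the gene whose groups lie far apart, at 41.3 to 52.8 CPM against 3.92 to 5.91 CPM, and the groups of Cdkn1b also do not overlap.

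Cdk4, the closest relative of Cdk6 and its partner in binding D cyclins, did not follow it. Cdk4 (ENSMUSG00000006728, chr10:127063534-127067920, plus strand) had 165, 164 and 168 CPM in the AAV-GFP libraries and 196, 164 and 188 CPM in the AAV-A2A libraries. The log2 FC was 0.14 (95% interval -0.21 to 0.49), with an adjusted p = 0.82 by edgeR's quasi-likelihood test with Benjamini-Hochberg adjustment. The overlapping Tspan31 had the same log2 FC of 0.14. As a share of the reads of Cdk4 and Cdk6 per exon length, Cdk6 took 5.48, 5.86 and 6.81% with AAV-GFP and 0.614, 0.831 and 0.482% with AAV-A2A. These groups did not overlap, and the exact permutation test of 3 against 3 libraries gave p = 0.1, which is the smallest value it can give. Cdk2, the kinase of late G1, had 16.8, 8.04 and 9.70 CPM with AAV-GFP and 12.0, 14.9 and 10.7 CPM with AAV-A2A. The Cdk2 groups overlapped widely (log2 FC 0.12, 95% interval -0.68 to 0.93).

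Among the D cyclins no difference between the vectors was called in the ACSA-2 fraction, and the intervals for Ccnd1 and Ccnd2 do not exclude sizeable ones. Ccnd2 had 134, 70.5 and 104 CPM in the AAV-GFP libraries and 150, 111 and 134 CPM with AAV-A2A (log2 FC 0.36, 95% interval -0.19 to 0.90). Ccnd3 had 89.9, 111 and 97.0 CPM against 95.4, 89.0 and 103.3 CPM, a log2 FC of -0.05 (-0.43 to 0.33). Ccnd1 was near the low end of measured genes, with 2.13, 3.59 and 3.98 CPM (85, 121 and 152 reads) against 5.91, 4.90 and 1.77 CPM (213, 207 and 80 reads), and its log2 FC of 0.37 had a wide interval, from -0.95 to 1.70. For all 3 cyclins the groups overlapped.

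Rb1 and the inhibitors were as follows in the same libraries. Rb1, the substrate of the D cyclin kinases, had 20.7, 31.0 and 18.8 CPM with AAV-GFP and 17.4, 25.5 and 20.5 CPM with AAV-A2A (log2 FC -0.15, 95% interval -0.79 to 0.48). Cdkn2c was tight in the controls, at 40.6, 42.6 and 40.1 CPM, and spread out with AAV-A2A, at 34.7, 19.4 and 52.3 CPM, so that A2A-309 and A2A-310 lay below and A2A-313 above every control. Its log2 FC was -0.21 (-0.94 to 0.51). Cdkn1b was the other gene whose groups did not overlap, as it had 11.9, 16.0 and 11.3 CPM with AAV-GFP and 24.3, 17.2 and 19.1 CPM with AAV-A2A. Its log2 FC of 0.63 (-0.01 to 1.27) was not called (adjusted p = 0.391, edgeR's quasi-likelihood test with Benjamini-Hochberg adjustment). Groups that do not overlap were found for 19.6% of all genes tested (8.61% higher and 10.9% lower with AAV-A2A), and for 2 of these 9.

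**Figure D2:**
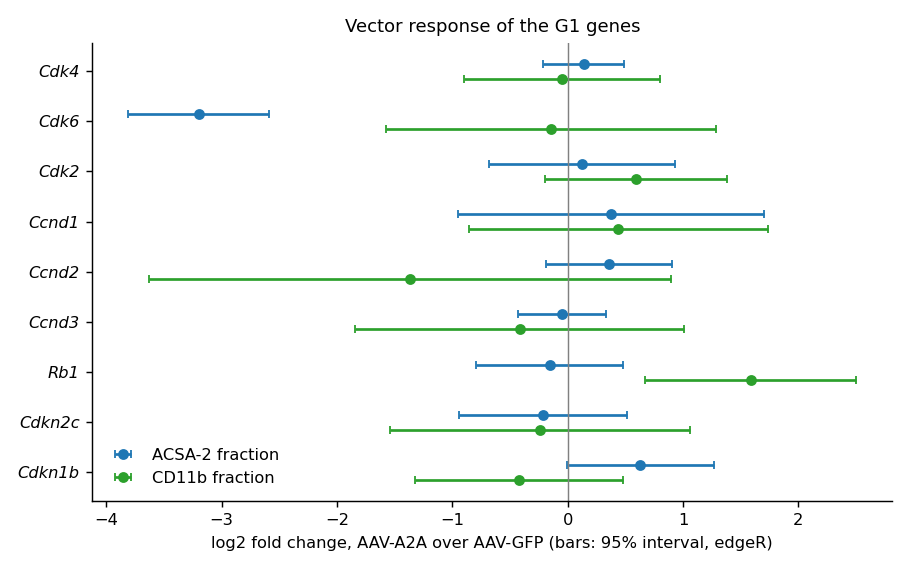
Log2 FC of AAV-A2A over AAV-GFP for each gene in the ACSA-2 (blue) and CD11b (green) fractions, with bars for the 95% interval of edgeR's fit (n = 3 libraries per group). Cdk6 in ACSA-2 stands at -3.20 with an interval clear of 0, whereas in CD11b its interval runs from -1.58 to 1.29, and Rb1 in CD11b stands at 1.59.

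Of the other cell cycle genes, those called in the ACSA-2 fraction were all lower with AAV-A2A, as were 524 of the 553 genes called in all. The share called over all genes tested was 3.36% (3.19% lower). Of 15 pocket protein, E2F, DP and DREAM genes tested, 1 was called, namely Rbl1, which encodes the Rb relative p107, at 51.2 ± 26 CPM with AAV-GFP and 7.93 ± 3.8 CPM with AAV-A2A (log2 FC -2.69 ± 0.48 SE, adjusted p = 0.0146). Rnf123, which encodes a subunit of the ubiquitin ligase for p27, was the 1 of 7 genes of D cyclin and p27 turnover that was called, at 179 ± 29 against 47.3 ± 3.3 CPM (log2 FC -1.92 ± 0.19 SE, adjusted p = 0.00184). Of 7 genes of the YAP, TEAD and Myc list, 3 were called. Yap1 and Wwtr1 (TAZ), the coactivators that bind TEAD factors, had a log2 FC of -1.18 and -1.26 (adjusted p = 0.0279 and 0.0169), and Myc, a transcription factor that drives growth genes, had a log2 FC of -1.54 (adjusted p = 0.0307). The median log2 FC of this list was -0.80, that of the pocket protein list 0.00618 and that of the turnover list -0.07, against 0.02 over all genes tested. All these p-values are from edgeR's quasi-likelihood test with Benjamini-Hochberg adjustment, and no gene was called in the remaining lists. These were 8 other G1/S kinases and cyclins (median log2 FC 0.10), 4 other CDK inhibitors (median -0.00260), 18 S phase and E2F target genes (median -0.18) and 11 mitosis genes (median -0.37). The most abundant gene of each had, in the same order, a log2 FC of -0.06 for Ccnh, 0.38 for Cdkn2d, 0.20 for Rrm1 and 0.16 for Mybl2. At an unadjusted p under 0.05, 1 of these genes passed, Mcm2, where 13% of all genes tested did.

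Some markers of other cells also differed between the vectors in this fraction. The 6 oligodendrocyte precursor markers summed to 193 to 306 CPM with AAV-GFP and 61.0 to 92.1 CPM with AAV-A2A. Cspg4 made up most of both sums (a log2 FC of -2.17, adjusted p = 0.00226 by edgeR's quasi-likelihood test with Benjamini-Hochberg adjustment), while Pdgfra was at 4.16 to 7.52 and 4.30 to 4.54 CPM and Gpr17 at 0 in the 3 AAV-GFP libraries. Of the 6 precursor markers 4 were tested, and 2 were higher and 2 lower with AAV-A2A, at a median log2 FC of 0.01. Cspg4 was the 1 called, where 3.36% of all genes tested were called. The 8 markers of neural progenitors and neuroblasts summed to 111 to 218 and 73.6 to 101.8 CPM, and 1 of 8 was called, Neurod4 (log2 FC -5.35). Of the 6 endothelial markers 1 was called, Flt1, at 160 to 197 against 46.0 to 77.5 CPM, while the 6 summed to 454 to 513 and 272 to 530 CPM. Mural markers summed to 4687 to 4822 CPM with AAV-GFP and 3587 to 5040 CPM with AAV-A2A. All 5 had a negative log2 FC, and 0 of 5 was called. Oligodendrocyte markers summed to 41.4 to 62.4 CPM with AAV-GFP and 66.3 to 77.5 CPM with AAV-A2A, and 0 of 5 tested was called. Monocyte and neutrophil markers, all too low to be tested, summed to 2.40 to 3.67 and 0.166 to 0.554 CPM. Astrocyte markers summed to 22057 to 26039 CPM with AAV-GFP and 22550 to 36208 CPM with AAV-A2A, and 0 of 8 was called. The part of these cells in the Cdk6 values was not tested.

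The genes whose pattern over the 12 libraries was most like that of Cdk6, by the root mean square difference of centred log2 CPM among 11623 genes, were Arhgef2 (0.449), Aff1 (0.542) and Tmem131l (0.633). Cdk6 itself had an SD of 1.48 on this scale, and all 3 of these genes were also lower with AAV-A2A in the ACSA-2 fraction, with a log2 FC of -2.16, -2.39 and -1.97. The difference between the vectors enters the distance, so that this direction follows from how the genes were chosen and supports nothing. The nearest genes were Mef2c, Ptpn1 and Csf2ra for Ccnd1 (0.409, 0.411 and 0.437), Tmem238, Ndufb2 and Cox8a for Ccnd2 (0.237, 0.286 and 0.288), and Spata6, Polr2m and Nt5dc2 for Ccnd3 (0.169, 0.186 and 0.205). The libraries share fractions and choroid plexus content, which enter these distances, and no test was made of them.

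Promoter sequence is shown for Cdk6 and Cdk4, the 2 kinases that bind D cyclins. The motifs marked, among them CACGTG, the E-box bound by Myc, were chosen with the results above known. A link between Myc and either kinase was not tested. RefSeq windows of 250 bases before to 50 after each start (GRCm38.p6) were found for 6 of the 9 genes. The parts of the Cdk6 and Cdk4 windows that lie before the start and outside exons follow, plus strand, 5′ to 3′, with capitals for CACGTG and for TGACG, the short core of the cAMP response element, or its reverse complement CGTCA.
Cdk6, chr5:3343643-3343731: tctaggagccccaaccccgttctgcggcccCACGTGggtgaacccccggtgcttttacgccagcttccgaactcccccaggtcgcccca
Cdk6, chr5:3343789-3343892: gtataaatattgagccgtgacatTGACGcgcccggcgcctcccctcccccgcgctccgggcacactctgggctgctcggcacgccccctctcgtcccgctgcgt
Cdk4, chr10:127063285-127063533: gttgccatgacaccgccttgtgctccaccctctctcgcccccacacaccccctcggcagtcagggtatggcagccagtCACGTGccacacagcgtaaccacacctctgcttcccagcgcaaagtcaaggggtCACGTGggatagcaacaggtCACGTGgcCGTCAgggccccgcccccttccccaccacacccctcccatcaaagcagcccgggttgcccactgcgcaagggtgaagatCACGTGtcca
The Cdk6 window lies inside the annotated span of the gene, which begins at chr5:3341485, and other starts of Cdk6 were not searched. Both strands were searched. CACGTG occurred once in the Cdk6 window, at -220 from the start, and 4 times in the Cdk4 window, at -172, -118, -98 and -11. Of 32851 such windows 7.15% held CACGTG, and 0.0244% held it 4 times or more. TGACG, held by 20.8% of windows, occurred once in each of both, at -81 in Cdk6 and -90 in Cdk4. Neither window held the full cAMP response element TGACGTCA (1.79% of windows, and it contains TGACG) nor CATTCC, the core bound by TEAD factors (14.7% of windows). These letters are a description of the windows and not of binding.

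In the CD11b fraction no gene of the set was called. Of all 16949 genes tested, 0 were called (0%) by edgeR's quasi-likelihood test with Benjamini-Hochberg adjustment, 2704 had an unadjusted p under 0.05, and DESeq2 called 798. Cdk6 had 22.6, 28.3 and 82.8 CPM in GFP-2328, GFP-2329 and GFP-2331 and 64.2, 30.6 and 26.0 CPM in A2A-2343, A2A-2344 and A2A-2347. The 3 choroid-rich libraries had 22.6, 28.3 and 26.0 CPM of these, and the groups overlapped. The log2 FC was -0.15 (95% interval -1.58 to 1.29), and it was 0.67 without GFP-2331, 0.02 without A2A-2344 and 0.10 without A2A-2347, so no direction is given. Without the 3 choroid-rich libraries, which leaves 1 control assumed to vary like the AAV-A2A libraries, the log2 FC was -0.80 (-2.11 to 0.51) for Cdk6, -0.34 for Cdk4 and 0.52 for Cdk2. Cdk4 varied with Cdk6, with 89.6, 107 and 161 CPM against 153, 101.9 and 91.0 CPM, and Cdk6 took 5.53, 5.76 and 10.7% of their reads per exon length against 8.89, 6.53 and 6.22%. Cdk2 had 17.6, 21.5 and 25.2 CPM against 43.9, 28.3 and 25.1 CPM, with a log2 FC of 0.60 (-0.19 to 1.39).

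**Figure D3:**
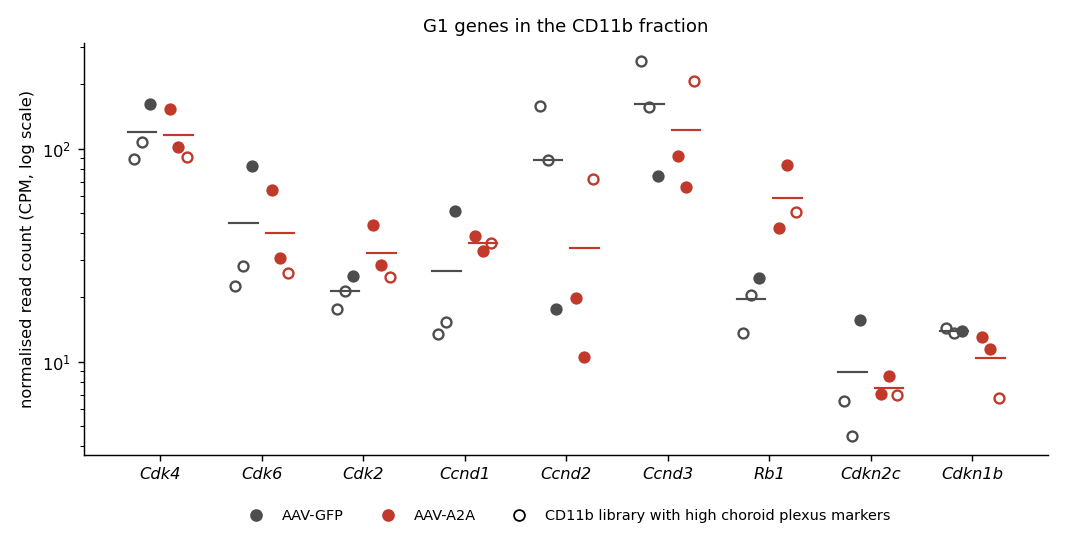
Normalised read counts (CPM, log scale) of the 9 genes in the 6 CD11b libraries, AAV-GFP in grey and AAV-A2A in red, with group means as lines and open points for the 3 libraries with high choroid plexus markers. The open points of Ccnd2 (72.3 to 159 CPM) and Ccnd3 (156 to 256 CPM) all lie above the filled ones, and the Rb1 groups do not overlap.

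Among the 9 genes, Rb1 had the largest log2 FC in size between the vectors in the CD11b fraction. It had 13.6, 20.4 and 24.7 CPM with AAV-GFP and 42.5, 83.8 and 50.2 CPM with AAV-A2A, and each AAV-A2A library lay above each control. The log2 FC was 1.59 ± 0.38 (SE; 95% interval 0.67 to 2.5), with an unadjusted p = 0.00474 and an adjusted p = 0.28 by edgeR's quasi-likelihood test with Benjamini-Hochberg adjustment. An unadjusted p under 0.05 was found for 16% of all genes tested. DESeq2 gave an adjusted p = 0.024 and called it. Without the 3 choroid-rich libraries the log2 FC was 1.36 (-0.10 to 2.82). Marker sums of 4 other cell types did not overlap between the vectors either, with AAV-GFP above AAV-A2A. They ranged over 881 to 5524 against 55.9 to 225 CPM for erythrocytes, 164 to 322 against 32.2 to 72.1 CPM for ependymal cells, 11.9 to 89.9 against 4.01 to 6.11 CPM for neurons and 576 to 1571 against 357 to 449 CPM for endothelial cells. The part of these cells in the Rb1 values was not tested. The neighbours that share exon bases with Rb1 had a log2 FC of 0.20 (Rcbtb2) and 0.07 (Lpar6). Cdkn1b was the other gene whose groups did not overlap, with 14.4, 13.6 and 13.9 CPM against 13.1, 11.4 and 6.78 CPM (log2 FC -0.42, 95% interval -1.32 to 0.48), and such separation was found for 23.4% of all genes tested (12.6% higher and 10.9% lower). Cdkn2c had 6.52, 4.48 and 15.7 CPM against 7.09, 8.54 and 6.94 CPM, and the groups overlapped. Without the choroid-rich libraries the log2 FC was -0.18 for Cdkn1b and -1.003 for Cdkn2c.

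Among the D cyclins of the CD11b fraction, Ccnd2 and Ccnd3 were highest in the choroid-rich libraries of either vector, and no difference between the vectors passed the test. Ccnd2 had 159, 88.2 and 17.7 CPM in GFP-2328, GFP-2329 and GFP-2331 and 19.9, 10.5 and 72.3 CPM in A2A-2343, A2A-2344 and A2A-2347. Ccnd3 had 256, 156 and 74.6 CPM against 92.3, 65.7 and 207 CPM in the same order. The lowest choroid-rich value of each gene stood well above the highest value of the other libraries for Ccnd2 and Ccnd3 alike. Ccnd1 had 13.5, 15.3 and 50.8 CPM against 38.9, 33.1 and 35.9 CPM, and the choroid-rich controls were the lowest. The log2 FC of AAV-A2A over AAV-GFP was -1.37 (95% interval -3.63 to 0.89) for Ccnd2, -0.41 (-1.84 to 1.01) for Ccnd3 and 0.44 (-0.85 to 1.73) for Ccnd1, and without the choroid-rich libraries it was -0.21, 0.09 and -0.49. The part of choroid plexus cells in these values was not tested beyond leaving the libraries out. Of the other cell cycle lists in CD11b, fitted only with the choroid-rich libraries included, 0 genes were called in any. Those named for the ACSA-2 fraction had a log2 FC of -0.19 for Rbl1, -0.20 for Rnf123, -0.96 for Yap1, -1.29 for Wwtr1 and -0.18 for Myc here, and the most abundant genes of the other lists had -0.57 (Cdk7), -1.53 (Cdkn1a), 0.98 (Mcm3) and 1.99 (Top2a). The median log2 FC was 0.39 over 18 S phase genes, 0.55 over 12 mitosis genes, -0.55 over 8 G1/S kinases and cyclins, -1.55 over 4 CDK inhibitors, -0.15 over 17 pocket protein and E2F genes, -0.17 over 7 turnover genes and -0.63 over 8 genes of the YAP list, against -0.05 over all genes tested.

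Whether the vector response differed between the fractions was tested in a fit of all 12 libraries. For Cdk6 the response was lower in ACSA-2 by a log2 FC of -3.10 ± 0.74 (SE; 95% interval -4.72 to -1.48), with an adjusted p = 0.0727 by edgeR's quasi-likelihood test with Benjamini-Hochberg adjustment, so that it was not called. It passed with DESeq2 (adjusted p = 0.00445), when only genes with 10 or more counts in each library were kept (0.0462) and without GFP-2331 (0.0118). Leaving out the choroid-rich libraries keeps GFP-2331 as the only CD11b control. In that fit the Cdk6 difference was a log2 FC of -2.45 and was not called. For Rb1 the difference was -1.79 (-2.91 to -0.68), with an adjusted p = 0.106. Across all genes 0.403% passed this test (0.0376% higher and 0.366% lower in ACSA-2), against 0 of the 9. The intervals of the other 7 genes included 0.

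The fractions were then compared in the AAV-GFP libraries, where levels are given per exon length (RPKM, CPM divided by the exon length in kilobases). In the ACSA-2 controls Cdk4 was highest, at 51.8 ± 0.79 RPKM (SD, n = 3), followed by Cdkn2c at 15.5 ± 0.41, Ccnd3 at 11.5 ± 1.2 and Ccnd2 at 11.1 ± 3.5 RPKM. Rb1 (3.97 ± 1.1), Cdk6 (3.34 ± 0.44), Cdkn1b (2.91 ± 0.54), Cdk2 (1.88 ± 0.77) and Ccnd1 (0.697 ± 0.21) came after them. The ranges of Ccnd3 and Ccnd2 overlapped, as did those of each neighbouring pair from Rb1 to Cdk2. With AAV-A2A, Cdk6 was at 0.358 ± 0.075 RPKM in this fraction, and its range touched that of Ccnd1 (0.369 to 1.27 RPKM). In the CD11b controls Cdk4 was again highest (36.5 ± 13 RPKM), and the means of Ccnd3, Ccnd2 and Ccnd1 were 18.0 ± 9.5, 9.05 ± 7.1 and 5.66 ± 4.7 RPKM. The cyclin ranges overlapped (8.74 to 27.8, 1.93 to 16.1 and 2.72 to 11.1 RPKM) and gave no order. In GFP-2331, the control with few choroid plexus reads, Ccnd1 was the highest cyclin (11.1 RPKM), above Ccnd3 (8.74) and Ccnd2 (1.93). The other 5 genes lay between 3.02 and 3.41 RPKM on average and could not be ordered. The length of Cdk6 includes a long untranslated part (13989 exon bases in all), and how much of it these cells transcribe was not measured.

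**Figure D4:**
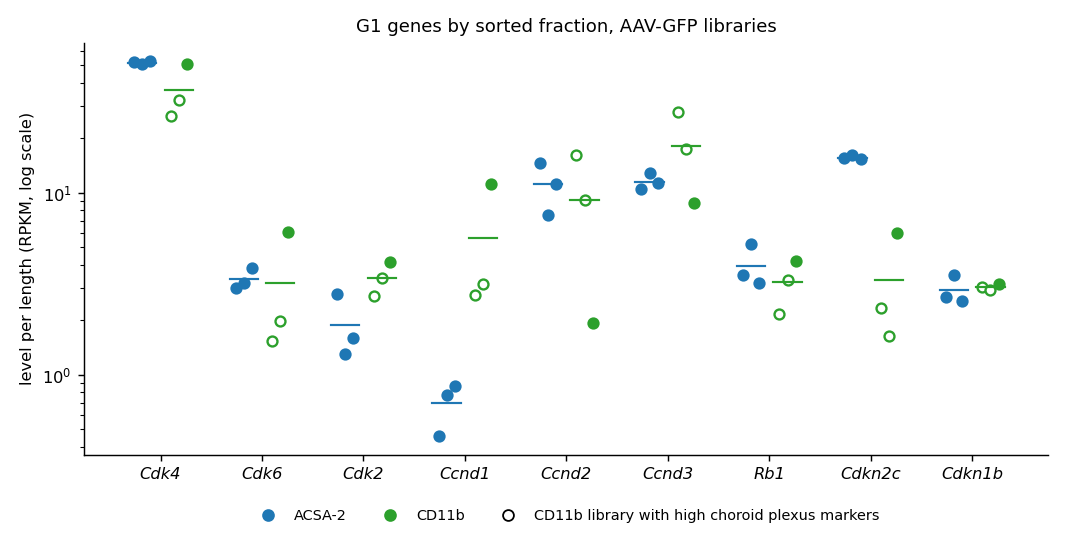
Levels per exon length (RPKM, log scale) of the 9 genes in the AAV-GFP libraries of the ACSA-2 (blue) and CD11b (green) fractions, with group means as lines and open points for the CD11b libraries with high choroid plexus markers. Cdkn2c is higher in all ACSA-2 libraries (15.2 to 16.0 against 1.63 to 6.01 RPKM), and Ccnd1 is lower (0.461 to 0.862 against 2.72 to 11.1 RPKM).

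Ccnd1 and Cdkn2c were the members called between the fractions, 2 of 9, where 25.8% of all 16980 genes tested were called (12.7% higher and 13% lower in ACSA-2). They were also the members whose groups did not overlap, as was so for 50.3% of all genes (25.4% higher and 24.9% lower). Ccnd1 had 0.461, 0.769 and 0.862 RPKM in the ACSA-2 controls and 2.72, 3.16 and 11.1 RPKM in the CD11b controls, with the choroid-rich libraries the lower ones of CD11b. The log2 FC of ACSA-2 over CD11b was -3.02 ± 0.66 (SE; adjusted p = 0.0185, edgeR's quasi-likelihood test with Benjamini-Hochberg adjustment). Cdkn2c had 15.4, 16.0 and 15.2 RPKM against 2.31, 1.63 and 6.01 RPKM, a log2 FC of 2.23 ± 0.52 (adjusted p = 0.022, same test). Both were no longer called when any ACSA-2 control was left out (adjusted p from 0.0543 to 0.0741), and Cdkn2c also not without GFP-2328 or GFP-2329 (0.0603 and 0.0623). Without both choroid-rich controls, which leaves GFP-2331 alone and assumes that it varies like the ACSA-2 controls, Ccnd1 (-4.02) and Cdkn2c (1.34) were called, and so was Ccnd2 (log2 FC 2.49, adjusted p = 0.0125), which stood at 0.29 with them. Without GFP-2331 instead, 5 members were called, and Cdk6 was then higher in ACSA-2 (0.93) and Ccnd3 lower (-0.97). The directions of Cdk6, Ccnd2, Ccnd3, Cdk4 and Rb1 between the fractions therefore rest on which CD11b libraries are kept. The fractions were deposited as separate tables, and whether they were prepared and sequenced together is not given in the sources used here. These controls are shared with the vector comparisons above.

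The other lists were compared between the fractions only with the choroid-rich controls included, where 25.8% of all genes tested were called. Ccnh and Mnat1, subunits of the CDK-activating kinase, were higher in ACSA-2 (log2 FC 0.91 and 1.19), as were E2f5 (1.63) and Lin52 (1.80), while E2f2 was lower (-4.73, at 0.120 against 3.27 CPM). Cdkn1c, which encodes the inhibitor p57, was lower in ACSA-2 by a log2 FC of -3.07 (12.4 ± 3.1 against 105 ± 77 CPM). Wwtr1 (2.18) and Rrm2 (2.45), a subunit of ribonucleotide reductase, were higher, and Mcm3 (-2.31), of the replicative helicase, was lower. No gene was called of 7 genes of D cyclin and p27 turnover and 11 mitosis genes. The called genes made up 2 of 8 G1/S kinases and cyclins (median log2 FC -0.27), 3 of 16 pocket protein and E2F genes (-0.09), 1 of 4 inhibitors (-0.31), 1 of 7 genes of the YAP list (0.96) and 2 of 18 S phase genes (-0.09), where the median over all genes tested was -0.09.

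The balance of the D cyclins within a library separated the fractions in both vectors. Ccnd1 took 1.43 to 4.53% of the D cyclin reads per exon length in the 6 ACSA-2 libraries and 5.84 to 51.0% in the 6 CD11b libraries. The means were 3.26 and 28.6%, and the exact two-sided permutation test over libraries gave p = 0.00216, the smallest it can give, and 0.00433 after adjustment over the 4 shares tested. Ccnd2 took 35.8 to 57.1% in ACSA-2 and 7.11 to 34.5% in CD11b (means 50.5 and 18.5%), with the same p-values by the exact permutation test. Ccnd3 took 46.2 and 52.9% on average (exact permutation p = 0.173), and Cdk6 took 3.35 and 7.26% of Cdk4 plus Cdk6 (exact permutation p = 0.0433, adjusted 0.0577). The ACSA-2 mean for Cdk6 pools 6.05% with AAV-GFP and 0.643% with AAV-A2A. In the AAV-GFP libraries alone, the Cdk6 shares of ACSA-2 (5.48 to 6.81%) and CD11b (5.53 to 10.7%) overlapped. The Ccnd1 and Ccnd2 shares were nearest to those of ACSA-2 in GFP-2328 and GFP-2329. In GFP-2331, A2A-2343 and A2A-2344, the libraries with few choroid plexus reads, Ccnd1 took 51.0, 39.5 and 44.99% and Ccnd2 8.87, 10.1 and 7.11%. Between the vectors the D cyclin shares overlapped in both fractions (exact permutation p from 0.3 to 1, n = 3 per group).

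**Figure D5:**
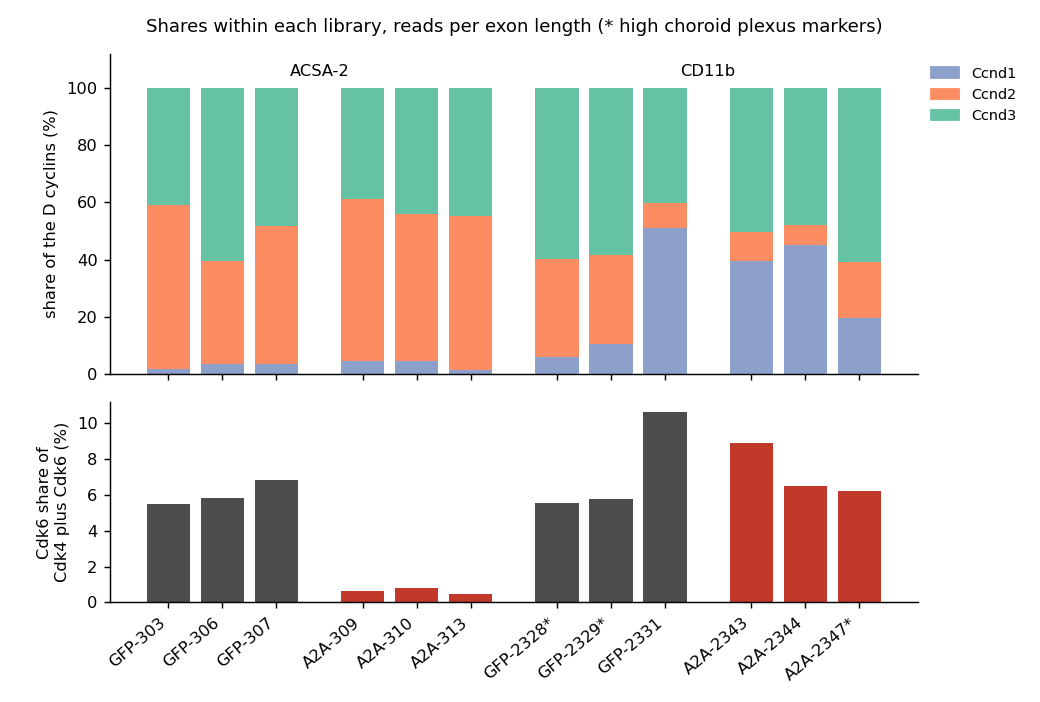
Shares of Ccnd1, Ccnd2 and Ccnd3 in the D cyclin reads per exon length (top, stacked) and share of Cdk6 in Cdk4 plus Cdk6 (bottom, AAV-GFP grey, AAV-A2A red) for each of the 12 libraries, with an asterisk on those with high choroid plexus markers. Ccnd1 is at most 4.53% in ACSA-2 and reaches 51.0% in CD11b, and the Cdk6 share is under 1% in the 3 ACSA-2 AAV-A2A libraries only.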

How the data were processed

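The authors deposited 1 table of raw counts for each fraction, with a row per Ensembl gene. Per the study's methods, reads came from SMART-Seq v4 and Nextera XT libraries without molecular identifiers, were trimmed with cutadapt 1.10, aligned to mm10 with STAR 2.5.3 and counted with HTSeq 0.6.1p1 (union mode, Ensembl annotation), keeping unique and unambiguous reads. The strand setting of the counting is not given in the sources used here. The CD11b table also holds 25 unnamed empty columns, which were not used. Counts include PCR duplicates, so the number of reads is not the number of RNA molecules. The errors of the fits come from the spread between libraries.

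Here, counts were tested in R 4.3.3 with edgeR 4.0.16 (TMM, filterByExpr, quasi-likelihood F-test, robust), each fraction apart, AAV-GFP libraries alone between fractions, and all 12 libraries for the difference of responses. Adjusted p-values cover all genes tested. Alternatives used DESeq2 1.42.0, limma-voom (limma 3.58.1), other scalings, filters and libraries left out. Shares were tested with scipy 1.17.1, and figures drawn with matplotlib 3.10.9. The scripts were tested on simulated data. CPM in vector comparisons were scaled within a fraction, and RPKM over all 12 libraries, with exon lengths from GENCODE of GRCm38. Libraries of a group differed beyond counting noise, so none was merged. The labels do not say that libraries were separate animals. The study's supplement gives 3 animals per group beside the astrocyte expression data, and for the CD11b libraries nothing of the kind was found, so p-values there measure only the spread between libraries. The 9 genes and all lists were chosen with earlier results of these data known. Named genes were the 9, Adora2a, the called genes of each list (or its most abundant), at most 3 called per list between fractions, and the 3 nearest genes. Cspg4, Pdgfra, Gpr17, Neurod4, Flt1, Ttr, Mcm2 and the overlapping neighbours fall outside this rule and were named after their values were seen.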

Additional observations from a re-analysis of the deposited data

How the results depend on the processing

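No paired analysis was possible because the groups compared share no replicate numbers. The call of Cdk6 in ACSA-2 and the absence of a call for the other 8 genes there held under all alternatives run. Genes called there numbered 553, against 1071 with DESeq2, 156 in a joint fit of 12 libraries and 272 to 448 with a library left out. In CD11b, DESeq2 called 798 genes and 1 member (Rb1), and the fit without the choroid-rich libraries, an alternative chosen after seeing the data, called 3 genes. Between fractions, 1927 to 5836 genes and 0 to 5 members were called with a library left out, against 4377 and 2. For the difference of responses, 75 genes were called, against 1552 with DESeq2, 10 with RLE scaling, 345 with at least 10 counts in every library, 0 without the choroid-rich libraries and 0 to 1286 with a library left out.

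Signs turned for small values with a library left out. In ACSA-2 the log2 FC ranged from -0.082 to 0.48 for Cdk2, -0.14 to 0.035 for Ccnd3, -0.31 to 0.095 for Rb1 and -0.61 to 0.081 for Cdkn2c. In CD11b it ranged from -0.64 to 0.67 for Cdk6, -0.30 to 0.23 for Cdk4, -1.02 to 0.084 for Ccnd3 and -0.56 to 0.45 for Cdkn2c, and without the choroid-rich libraries Ccnd1 (-0.49) and Ccnd3 (0.086) turned. Between fractions the range was -0.28 to 0.93 for Cdk6, -0.19 to 1.00 for Ccnd2 and -0.21 to 0.012 for Cdkn1b, and without the choroid-rich libraries Cdk6 (-0.89), Cdk4 (-0.0079), Ccnd3 (0.37) and Rb1 (-0.12) turned. For the difference of responses the range was -0.77 to 0.31 for Cdkn2c, -1.03 to 0.28 for Ccnd1, -0.14 to 0.85 for Ccnd3 and -0.19 to 0.42 for Cdk4. There Cdkn2c also turned with DESeq2 (0.072), RLE scaling (0.072), the filter of 10 counts (0.046) and without the choroid-rich libraries (0.73), as did Ccnd1 (0.82) and Ccnd3 (-0.20) without these libraries.

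Without division by exon length, the Cdk6 share differed by -12.8 points and the Ccnd3 share by -14.5 points between fractions (ACSA-2 minus CD11b), both past the threshold. Each fraction mean pools both vectors, whose Cdk6 shares did not overlap in ACSA-2. In the AAV-GFP libraries alone the Ccnd1 share differed by -19.4 and the Ccnd2 share by 22.2 points, with a test of 3 against 3 that cannot pass. Without the choroid-rich libraries the Ccnd3 share differed by 0.089 points. With a library left out the differences ranged from -4.61 to -3.24 points for Cdk6, -29.9 to -20.9 for Ccnd1, 29.7 to 35.2 for Ccnd2 and -9.50 to -5.08 for Ccnd3. The cause of these changes was not tested.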
